A study of Homo sapiens with 6 samples.

Results

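The matrix metalloproteases (MMP), the ADAMTS proteases and the TIMP inhibitors were examined in human embryonic stem cells of the established line KhES-1, kept in AKIT or in Essential 8 (E8) medium. Members were taken by symbol, as every row named MMP, ADAMTS or TIMP with a number, and came to 47 of the 23346 gene rows: 24 MMP, 19 ADAMTS and 4 TIMP genes. Both media were used on dishes coated with a laminin fragment. E8 is a defined medium with FGF2 and TGF-beta and was the control. AKIT medium is built on small-molecule inhibitors of GSK3, DYRK kinases and calcineurin, as background knowledge has it. The series has 3 libraries per medium, and values of AKIT replicates 1 to 3 and E8 replicates 1 and 2 were used, while E8 replicate 3 was not analysed here. All cells are of 1 line, and no label calls the replicates separate cultures. The spread that the p-values measure is thus that of these libraries and may be technical.

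MMPs are zinc proteases that cut collagens, laminins, proteoglycans and many cell-surface proteins. Most are secreted as inactive proenzymes, and the membrane-type members stay at the cell surface, where some of them activate secreted MMPs. ADAMTS proteases are secreted and bind the matrix; some cut the proteoglycans versican and aggrecan, and others trim the ends of procollagens. TIMPs are small secreted proteins that block the active site of MMPs and, for some of them, of ADAM and ADAMTS proteases.

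Levels are in RPKM, read counts scaled to gene length and library size, so that they can be compared between genes. Every difference is taken as AKIT minus E8, in log2(RPKM + 1) units ± its standard error, a scale that understates the change of low genes. The SD behind each mean comes from 3 AKIT (n = 3) or 2 E8 libraries (n = 2). Genes whose mean across the 5 libraries reached 0.5 RPKM were tested with limma, and "rose" and "fell" mean a Benjamini-Hochberg adjusted p under 0.05 over all 14776 genes tested. Of the 47 members, 29 reached that level and 18 did not. Among the 29, 3 rose, 7 fell and 19 did not pass, against 8.22% of all tested genes that rose and 11.7% that fell. In 19 of the 29 all AKIT libraries lay on 1 side of both E8 libraries, as they did for 54.4% of all tested genes. The median difference of the 29 was -0.11, beside -0.01 for all tested genes. ADAMTS10 reached the level through E8, its mean in AKIT being under 0.5 RPKM, and ADAMTS5 through AKIT.

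**Figure D1:**
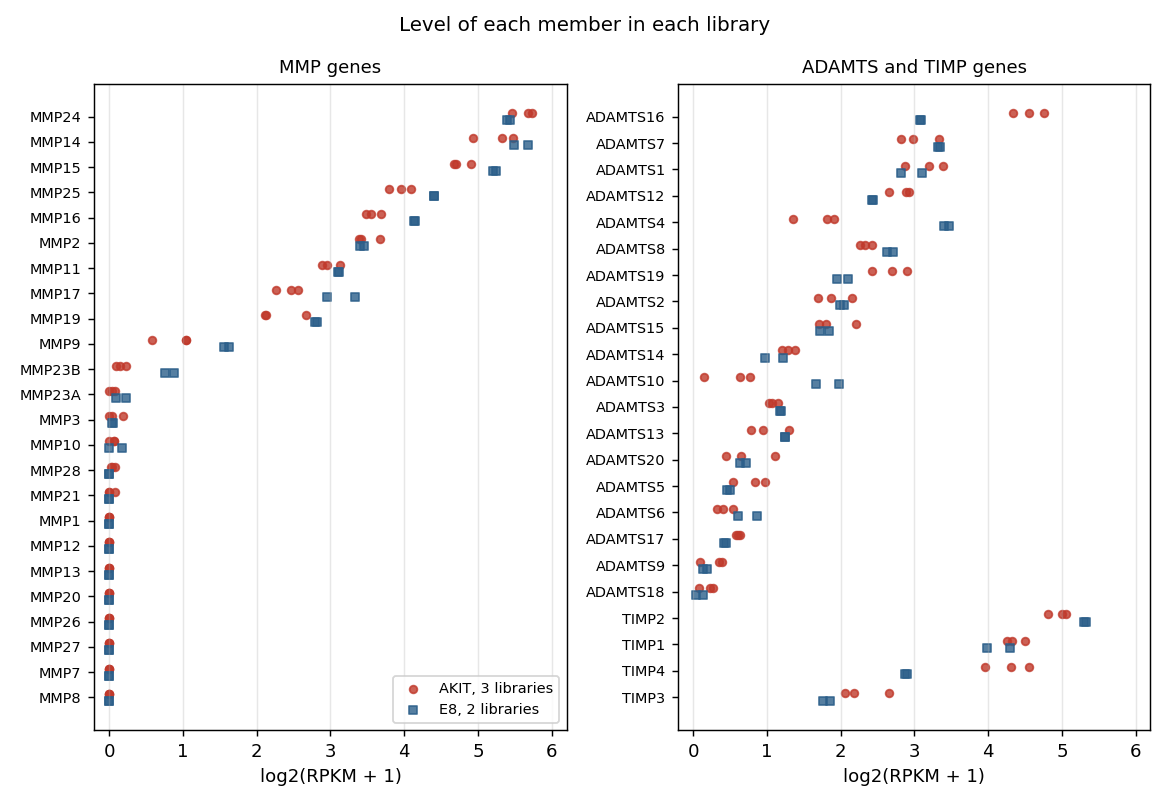
Level of each of the 47 members as log2(RPKM + 1), 1 point per library (circles, 3 AKIT libraries; squares, 2 E8 libraries), with MMP genes on the left and ADAMTS and TIMP genes on the right, ordered by mean within each family. MMP24, MMP14 and MMP15 stand at the top of their family, and 8 MMP genes are at 0 in every library.

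The libraries rested on 16242864 to 23263095 reads. All 10 markers of embryonic stem cells were detected at 7.60 RPKM (NANOG) or more in each library. POU5F1 had 349 ± 52.0 RPKM in AKIT and 328 ± 21.0 in E8 (difference 0.08 ± 0.15, limma adjusted p = 0.727). SOX2 and PODXL fell, calls that ended without either E8 library (limma adjusted p = 0.118 to 0.200) and, for SOX2, without AKIT replicate 3 (0.0525). AKIT replicate 2 lay apart from the other libraries on the second principal component (17.2% of the variance) and was the AKIT library nearest to the E8 mean for 16 of the 29 tested members. The summed level of 12 fibroblast and mesenchyme markers was 210.2 to 272 RPKM in AKIT and 352 to 354 in E8. THY1 alone held 145 to 203 RPKM of that sum in AKIT and 273 to 275 in E8. Of the 10 tested, 4 fell (COL1A1, COL6A3, THY1 and PDGFRB), beside 11.7% of all tested genes. COL3A1 and LUM were not among these 4 and did not pass. AKIT replicates 1, 2 and 3 had 5.63, 2.15 and 0.141 RPKM of COL3A1 and 5.81, 1.83 and 0.0244 of LUM. In E8 either had at most 0.0413 RPKM. Of 8 endothelial markers EMCN was at 0 in all libraries, PECAM1 and VWF stayed at or below 0.0682 RPKM, and KDR, a VEGF receptor, rose (difference 1.82 ± 0.18, limma adjusted p = 0.00178). TEK was lower in each AKIT library, at 1.23 to 2.27 RPKM against 2.86 and 3.01 in E8, and did not pass. ESAM, below the tested level, was at 0 to 0.0920 RPKM in AKIT and 0.727 and 0.560 in E8. CDH5 was at 0 to 0.604 and 0.0274 to 0.0298 RPKM, and CLDN5 at 0.743 to 1.15 and 0.426 to 0.685. The summed level of 8 trophoblast and amnion markers, with CGB5 at 0, was 6.05 to 10.9 RPKM in AKIT and 17.3 to 17.7 in E8. Of the 5 tested, 3 fell (KRT7, TFAP2A and GABRP), beside 11.7% of all tested genes. CGA and GCM1 went the other way, at 0.102 to 1.99 and 0.0311 to 0.747 RPKM in AKIT and 0 in E8. The sums were 7.01 to 12.0 and 5.62 to 6.83 RPKM for endoderm and 5.71 to 13.7 and 4.68 to 5.57 for mesoderm markers. For neural markers they were 388 to 420 and 338 to 360. Of the endoderm markers FOXA2 rose and HHEX fell, and of the neural markers TUBB3 rose. TUBB3 and NES made up most of the neural sums, and PAX6 and SOX1 were at most 0.440 and 0.817 RPKM. The part of these markers in the results was not tested. In bulk RNA, fewer cells of a type and less RNA per cell cannot be told apart.

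Many MMP genes were silent in both media. MMP1, MMP8 and MMP13, the collagenases, MMP7 and MMP26, the matrilysins, MMP12, the macrophage elastase, MMP20, the protease of tooth enamel, and MMP27 were at 0 RPKM in all 5 libraries. A value of 0 allows up to 3 reads, which for a gene of 1 kb is 0.129 to 0.185 RPKM (counting error only). On RefSeq's GRCh38.p14 assembly, 9 MMP genes follow one another on chromosome 11 with no other protein-coding gene between them: MMP7, MMP20, MMP27, MMP8, MMP10, MMP1, MMP3, MMP12 and MMP13. Of these 9, 7 were at 0, MMP10 had at most 0.129 RPKM and MMP3 at most 0.141. Over the 5 libraries MMP10 had 8 reads and MMP3 had 9. Of the 15 MMP genes elsewhere, 10 reached the tested level and MMP26 alone was at 0. The nearest protein-coding genes on either side of the chromosome 11 group were TMEM123, at 61.1 to 80.9 RPKM in AKIT and 39.4 to 40.1 in E8, and DCUN1D5, at 5.57 to 6.82 RPKM over all libraries.

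RefSeq promoter sequences (GRCh38.p14) were at hand for 27 of the 47 members. The 250 bases before the start were searched on both strands for TATAAA (the TATA box), TGANTCA and GGGCGG (the GC box). TGANTCA takes any middle base and is thus wider than TGAGTCA or TGACTCA, the binding motif of AP-1, the FOS and JUN dimer. Entries were missing for ADAMTS1, ADAMTS4, ADAMTS5, ADAMTS8, ADAMTS9, ADAMTS15, ADAMTS16, MMP1, MMP2, MMP3, MMP9, MMP12, MMP13, MMP16, MMP17, MMP19, MMP23A, MMP25, MMP28 and TIMP2. The last 120 bases before the start are printed for 3 genes of the chromosome 11 group that hold both TATAAA and TGANTCA. They are also printed for 3 members that changed, to show the contrast between silent and expressed members. Capitals mark the motifs searched, also where they lie on the other strand (CCGCCC for the GC box).
MMP7, chr11:102530748-102530867, minus strand: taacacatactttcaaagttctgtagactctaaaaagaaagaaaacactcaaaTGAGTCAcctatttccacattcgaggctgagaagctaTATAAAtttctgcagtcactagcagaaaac
MMP10, chr11:102780629-102780748, minus strand: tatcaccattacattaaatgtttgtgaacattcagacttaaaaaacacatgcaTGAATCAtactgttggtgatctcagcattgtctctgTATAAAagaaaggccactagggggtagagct
MMP20, chr11:102625333-102625452, minus strand: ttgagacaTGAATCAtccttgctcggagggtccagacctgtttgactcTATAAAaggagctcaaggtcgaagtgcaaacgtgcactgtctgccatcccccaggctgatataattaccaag
MMP15, chr16:58025634-58025753, plus strand: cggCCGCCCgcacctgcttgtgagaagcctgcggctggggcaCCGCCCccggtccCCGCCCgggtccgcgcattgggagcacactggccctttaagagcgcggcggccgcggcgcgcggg
TIMP4, chr3:12158913-12159032, minus strand: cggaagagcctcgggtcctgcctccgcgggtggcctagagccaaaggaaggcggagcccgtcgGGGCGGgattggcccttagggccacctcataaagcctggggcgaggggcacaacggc
ADAMTS19, chr5:129460178-129460297, plus strand: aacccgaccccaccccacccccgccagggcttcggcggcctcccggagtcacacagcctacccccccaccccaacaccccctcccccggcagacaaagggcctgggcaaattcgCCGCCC

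In MMP7 and MMP10 the TGANTCA match began 67 bases before the start in each, and the TATA box 30 and 31 bases before it. In MMP20 they began 112 and 72 bases before it. The match reads TGAGTCA, the AP-1 motif, in MMP7 and TGAATCA, which is not that motif, in MMP10 and MMP20. No motif of these kinds was found in MMP27. MMP8 and MMP26 held a TATA box, 110 and 28 bases before the start.

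Of the 5 members at 0 in all libraries that had a promoter entry, 4 held TATAAA, 2 held TGANTCA and 0 held GGGCGG. Their GC content was 32.8 to 41.6%. Of the 16 tested members with an entry, 1 held TATAAA (ADAMTS10), 1 held TGANTCA (ADAMTS12) and 16 held GGGCGG, with a GC content of 56.8 to 80.8%. Between them stood 6 members above 0 but below the tested level, MMP10 included. Of these, 2 held TATAAA, 1 held TGANTCA and 3 held GGGCGG, and their GC content was 34.4 to 76.4%. Over all gene rows with an entry the same order was seen: the GC box was in 67.9% of the tested genes, 34.8% of the genes above 0 but below the tested level and 13.9% of the genes at 0, and TATAAA in 5.3%, 13.9% and 26.9%. TGANTCA was in 3.8%, 7.2% and 11.1%. Over all 27305 promoters of the table, 42.3% held the GC box, 11.1% TATAAA and 6.6% TGANTCA. The split between silent and expressed members thus lay along the same line as in genes at large. A match is a string of letters in this window and was not tested as a site.

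**Figure D2:**
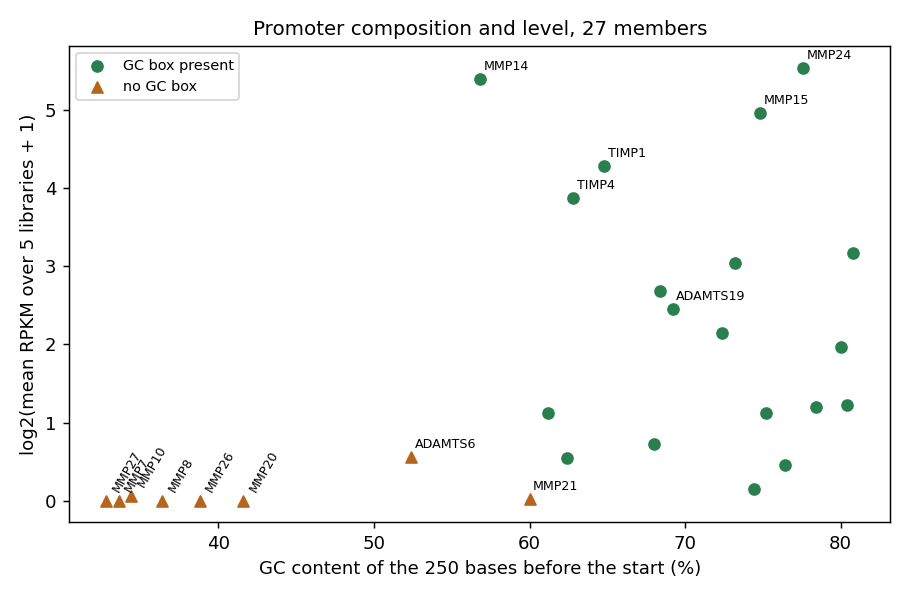
GC content of the 250 bases before the start (x axis, %) against log2(mean RPKM over the 5 libraries + 1) (y axis) for the 27 members with a promoter entry; circles hold a GC box and triangles do not. The 5 members at 0 lie at 32.8 to 41.6% GC, and the 16 tested members at 56.8 to 80.8%.

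The membrane-type MMPs made up most of the MMP transcript level and contained most of its falls. Their summed RPKM was 85.4 to 87.1% of the MMP sum in each of the 5 libraries. Of the 6 genes, MMP15, MMP16, MMP17 and MMP25 fell, and MMP14 and MMP24 did not pass. In each of the 6 the AKIT libraries lay on 1 side of both E8 libraries, above them for MMP24 and below them for the other 5. Of all tested genes, 11.7% fell, and 54.4% had all AKIT libraries on 1 side of both E8 libraries.

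MMP15 is a transmembrane member. Its levels, in order of replicate number, as wherever single libraries are given for a gene, were 29.1, 24.6 and 25.1 RPKM for AKIT and 36.8 and 35.8 for E8. All AKIT libraries were lower than both E8 libraries (difference -0.46 ± 0.11, limma adjusted p = 0.0265). MMP16, also transmembrane, was at 10.2, 11.8 and 10.7 RPKM in AKIT and at 16.6 and 16.5 in E8 (-0.57 ± 0.10, limma adjusted p = 0.0133). Its E8 mean was 1.52-fold the AKIT mean, with little spread in either group.

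MMP17 and MMP25 are held at the membrane by a lipid anchor rather than a transmembrane segment. MMP17 was at 4.54, 4.87 and 3.79 RPKM in AKIT and at 9.05 and 6.75 in E8 (-0.71 ± 0.16, limma adjusted p = 0.0229). The E8 libraries differed more from each other here than the AKIT libraries did. MMP25 was at 14.5, 16.1 and 12.9 RPKM in AKIT and at 20.1 and 20.2 in E8 (-0.45 ± 0.11, limma adjusted p = 0.0353).

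MMP14, the best known activator of MMP2 at the cell surface, was at 43.4, 29.6 and 39.2 RPKM in AKIT and 50.2 and 43.9 in E8. The highest AKIT library was just below the lower E8 library, and the difference did not pass (-0.34 ± 0.17, limma adjusted p = 0.193, 95% interval from -0.73 to 0.06). MMP24, a member known from the nervous system, had the highest mean level of all 47 genes. In the GENCODE annotation it lies inside MMP24OS, a protein-coding gene on the opposite strand that has no gene row. The use of strand in counting is not given in the sources used here. The level of MMP24, and its part in the membrane-type sum, may thus include reads of MMP24OS, which was not tested. MMP24 was at 52.4, 43.2 and 50.1 RPKM in AKIT and 41.1 and 42.2 in E8 (0.21 ± 0.11, limma adjusted p = 0.213, 95% interval from -0.05 to 0.47). Without AKIT replicate 2, the lowest of the AKIT libraries for both genes, MMP24 passed (0.29, limma adjusted p = 0.0312, with 0.0312 to 0.573 over the alternatives).

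All 4 calls of the membrane-type group ended when either E8 library was left out (limma adjusted p = 0.0691 to 0.232). Those of MMP17 and MMP25 also ended without AKIT replicate 1 (0.0533 and 0.0743), and those of MMP15, MMP17 and MMP25 without AKIT replicate 3 (0.0700, 0.0633 and 0.0744). Leaving out any 1 library kept the direction of each.

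Of the gelatinases, which cut denatured collagen and the collagen of basement membranes, MMP9 fell and MMP2 did not pass. MMP9 was at 1.05, 0.497 and 1.06 RPKM in AKIT, the lowest being replicate 2, and at 2.08 and 1.95 in E8 (-0.71 ± 0.18, limma adjusted p = 0.0350). This call ended without AKIT replicate 1 (0.0540), AKIT replicate 3 (0.0573), E8 replicate 1 (0.215) or E8 replicate 2 (0.185), and with a pseudocount of 0.1, no filter or quantile normalization, within a range of 0.0117 to 0.215. MMP2 was at 9.42 to 11.8 RPKM in AKIT and 9.53 and 9.92 in E8, groups that overlapped (0.06 ± 0.12, limma adjusted p = 0.746, 95% interval from -0.23 to 0.36).

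Of the remaining MMP genes, MMP11 and MMP19 reached the tested level. MMP11, a stromelysin that is activated inside the cell by furin, was at 6.37 to 7.76 RPKM in AKIT and 7.61 and 7.65 in E8 (-0.12 ± 0.12, limma adjusted p = 0.505). MMP19 was at 3.33, 5.35 and 3.36 RPKM in AKIT and 5.90 and 6.05 in E8, so that AKIT replicate 2 came near to E8 (-0.50 ± 0.19, limma adjusted p = 0.105). Without that library MMP19 passed (-0.68, limma adjusted p = 0.00631, with 0.00631 to 0.361 over the alternatives). TMEM198B, a transcribed pseudogene that overlaps MMP19 on the opposite strand in GENCODE release 29, was likewise highest in replicate 2 within AKIT, at 6.98, 12.2 and 6.92 RPKM, and 13.8 and 12.6 in E8. Since the use of strand in counting is not given in the sources used here, reads of the pair cannot be told apart.

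MMP23B, with a mean below the tested level, was at 0.0694, 0.104 and 0.166 RPKM in AKIT and 0.685 and 0.844 in E8. These are 2, 3 and 4 reads against 15 and 17, the smallest whole numbers of reads that fit the values. MMP23A, its near-identical neighbour copy, was at 0 to 0.0569 RPKM in AKIT and 0.0625 and 0.170 in E8, and the division of reads between the copies is uncertain. MMP21 and MMP28, at most 0.0604 RPKM in AKIT, were at 0 in E8.

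**Figure D3:**
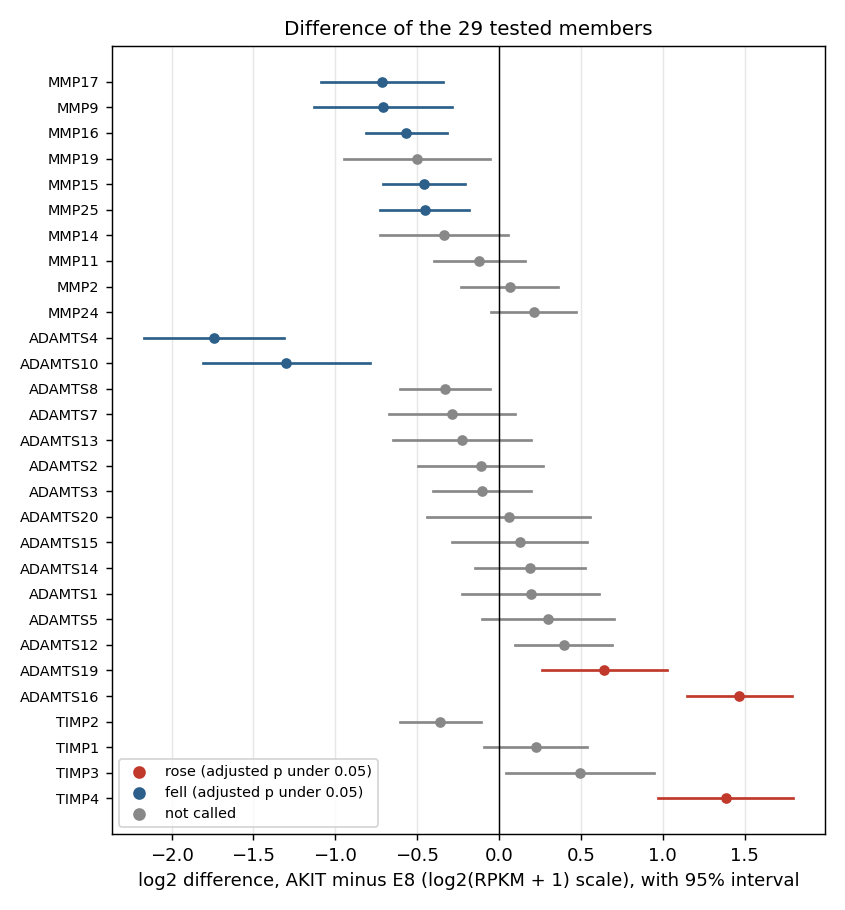
Difference between AKIT and E8 in log2(RPKM + 1) units, positive where AKIT was higher (points), with its 95% interval (bars), for the 29 tested members, by family and in order of size. ADAMTS4 at -1.74 and ADAMTS16 at 1.47 mark the ends, and the MMP genes lie between -0.71 and 0.21.

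The ADAMTS genes moved in both directions, and ADAMTS4, ADAMTS16 and ADAMTS10 differed more than any tested MMP gene in log2(RPKM + 1) units. Of 19, 15 were tested, ADAMTS16 and ADAMTS19 rose, ADAMTS4 and ADAMTS10 fell and 11 did not pass. Of all tested genes, 8.22% rose and 11.7% fell. ADAMTS16, the gene of a protease known from kidney and gonad, was at 26.0, 22.5 and 19.2 RPKM in AKIT and 7.48 and 7.46 in E8. Its AKIT mean of 22.6 ± 3.37 was 3.02-fold the E8 mean of 7.47 ± 0.0119 (difference 1.47 ± 0.14, limma adjusted p = 0.00162). It took up 30.4 to 37.3% of the summed ADAMTS level in AKIT and 12.1 to 12.8% in E8.

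ADAMTS19, which forms a related pair with ADAMTS17, was at 6.43, 5.47 and 4.36 RPKM in AKIT and 3.28 and 2.88 in E8 (0.64 ± 0.16, limma adjusted p = 0.0347). The call ended without AKIT replicate 1 (0.0733), E8 replicate 1 (0.157) or E8 replicate 2 (0.235) and with no filter, within a range of 0.0131 to 0.235. ADAMTS17 itself, below the tested level, was at 0.550, 0.496 and 0.529 RPKM in AKIT and 0.358 and 0.340 in E8, with no overlap between the groups.

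ADAMTS4, one of the main aggrecanases, had the largest fall of the tested members in log2(RPKM + 1) units. It was at 1.56, 2.75 and 2.52 RPKM in AKIT and 10.03 and 9.56 in E8, so that the E8 mean of 9.80 ± 0.327 was 4.30-fold the AKIT mean of 2.28 ± 0.632 (-1.74 ± 0.18, limma adjusted p = 0.00211).

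ADAMTS10, which binds fibrillin, was at 0.112, 0.700 and 0.560 RPKM in AKIT and 2.94 and 2.17 in E8 (-1.30 ± 0.22, limma adjusted p = 0.00933). AKIT replicate 1 was the lowest, and the call ended without E8 replicate 1 (0.0970) or E8 replicate 2 (0.0572), within a range of 0.00185 to 0.0970. With a pseudocount of 0.1 the difference of this low gene was -2.45, and with voom it was -2.85, larger falls than the -2.10 and -2.15 of ADAMTS4. The E8 mean of ADAMTS10 was 5.58-fold its AKIT mean, also above the 4.30-fold of ADAMTS4. ADAMTS6, the closest relative of ADAMTS10 and below the tested level, was at 0.249, 0.450 and 0.326 RPKM in AKIT and 0.530 and 0.822 in E8.

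**Figure D4:**
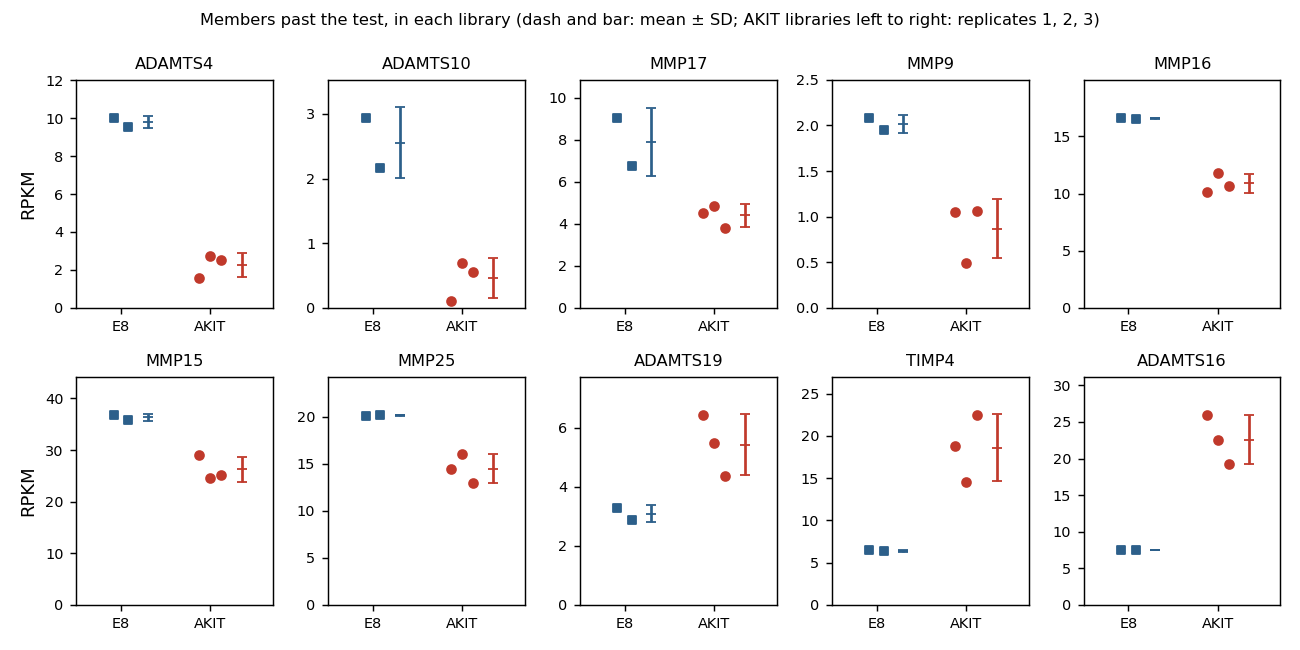
RPKM (y axis, from 0) in each library for the 10 members that fell or rose, E8 as squares and AKIT as circles, with the mean ± SD beside each group (n = 2 and n = 3). The 10 were chosen by the test, and the groups do not overlap in any of them, nor in 54.4% of all tested genes.

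The other proteoglycan-cleaving ADAMTS genes did not pass. ADAMTS1, the highest of them, was at 6.30, 9.47 and 8.15 RPKM in AKIT and 7.57 and 6.04 in E8, groups that overlapped (0.19 ± 0.18, limma adjusted p = 0.475). ADAMTS8 was at 3.79 to 4.38 RPKM in AKIT and 5.57 and 5.16 in E8 (-0.33 ± 0.12, limma adjusted p = 0.0915). ADAMTS5, the other main aggrecanase, was at 0.449, 0.974 and 0.790 RPKM in AKIT and 0.381 and 0.421 in E8 (0.30 ± 0.17, limma adjusted p = 0.253). ADAMTS15 (2.25 to 3.61 RPKM in AKIT, 2.29 and 2.57 in E8) and ADAMTS20 (0.360 to 1.15 and 0.548 to 0.642) overlapped between the media. ADAMTS9 stayed below the tested level, at 0.0635 to 0.317 RPKM in AKIT and 0.0929 and 0.135 in E8, as did ADAMTS18, the closest relative of ADAMTS16, at 0.0523 to 0.211 and 0.0312 to 0.0958.

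The 3 procollagen-trimming genes did not pass either. ADAMTS2 was at 2.25 to 3.47 RPKM in AKIT and 2.98 and 3.13 in E8, ADAMTS3 at 1.04 to 1.21 and 1.26 and 1.29, and ADAMTS14 at 1.31 to 1.61 and 1.33 and 0.970. Their differences lay between -0.11 and 0.19. ADAMTS7 and ADAMTS12 are known to cut COMP, a cartilage matrix protein. ADAMTS12 was higher in each AKIT library, at 6.60, 6.41 and 5.33 RPKM against 4.36 and 4.42 in E8, and missed the threshold (0.40 ± 0.13, limma adjusted p = 0.0681, with 0.0335 to 0.311 over the alternatives). ADAMTS7 was at 6.91, 9.08 and 6.05 RPKM in AKIT and 9.18 and 8.98 in E8 (-0.29 ± 0.16, limma adjusted p = 0.246). Without AKIT replicate 2, its highest AKIT library, ADAMTS7 passed (-0.43, limma adjusted p = 0.0257, with 0.0257 to 0.553 over the alternatives). ADAMTS13, the protease of von Willebrand factor, was at 0.730 to 1.47 RPKM in AKIT and 1.36 and 1.37 in E8 (-0.23 ± 0.18, limma adjusted p = 0.400).

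Of the 4 inhibitors, TIMP4 rose and the other 3 did not pass. TIMP4, known mainly from heart and brain, was at 18.8, 14.5 and 22.5 RPKM in AKIT and 6.49 and 6.33 in E8. Its AKIT mean of 18.6 ± 3.99 was 2.91-fold the E8 mean of 6.41 ± 0.107 (1.38 ± 0.17, limma adjusted p = 0.00362). TIMP4 made up 23.1 to 29.5% of the summed TIMP level in AKIT and 9.8 and 10.1% in E8.

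TIMP2, which also takes part in the activation of MMP2 by MMP14, had the highest mean of the 4, at 32.1, 27.1 and 31.1 RPKM in AKIT and 38.4 and 39.2 in E8. All AKIT libraries were lower than both E8 libraries, and the difference was just outside the threshold (-0.36 ± 0.10, limma adjusted p = 0.0533). It passed without AKIT replicate 2 (0.0331), with quantile normalization, with array weights and with voom, within a range of 0.0195 to 0.309. TIMP1 was at 21.7, 18.1 and 19.1 RPKM in AKIT and 18.6 and 14.8 in E8, groups that overlapped (0.22 ± 0.13, limma adjusted p = 0.270). TIMP3, which binds to the matrix, was at 5.33, 3.18 and 3.55 RPKM in AKIT and 2.63 and 2.38 in E8 (0.50 ± 0.19, limma adjusted p = 0.113). AKIT replicate 1, its highest library, was also the highest for COL3A1 and LUM, whose part was not tested. Without AKIT replicate 2 TIMP3 passed (0.62, limma adjusted p = 0.0412, with 0.0293 to 0.409 over the alternatives).

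TIMP1, TIMP3 and TIMP4 each lie inside a synapsin gene on the opposite strand (SYN1, SYN3 and SYN2, in GENCODE release 29). SYN2, around TIMP4, was at 2.24 to 2.40 RPKM in AKIT and 2.28 and 2.43 in E8. SYN3, around TIMP3, fell, at 5.16, 9.11 and 4.92 RPKM in AKIT and 12.03 and 13.1 in E8 (-0.92 ± 0.23, limma adjusted p = 0.0356), while TIMP3 was higher in each AKIT library. That call ended without AKIT replicate 1 or 3 or either E8 library and with no filter, within a range of 0.00107 to 0.208. SYN1, around TIMP1, was at 3.24 to 4.27 RPKM in AKIT and 3.09 and 3.76 in E8.

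Summed over the genes of a family, MMP levels were 178, 152 and 163 RPKM in AKIT and 199.9 and 192 in E8. The TIMP sum was 77.9, 62.9 and 76.2 RPKM in AKIT and 66.1 and 62.7 in E8. The ratio of the MMP sum to the TIMP sum was 2.29, 2.42 and 2.13 in AKIT and 3.02 and 3.06 in E8, with no overlap. Without TIMP4 in the sum the ratios were 3.01, 3.15 and 3.03 in AKIT and 3.35 and 3.41 in E8. The ADAMTS sum was 69.6, 74.1 and 60.6 RPKM in AKIT and 61.7 and 58.3 in E8, groups that overlapped. These sums are descriptions of RNA levels and carry no test.

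**Figure D5:**
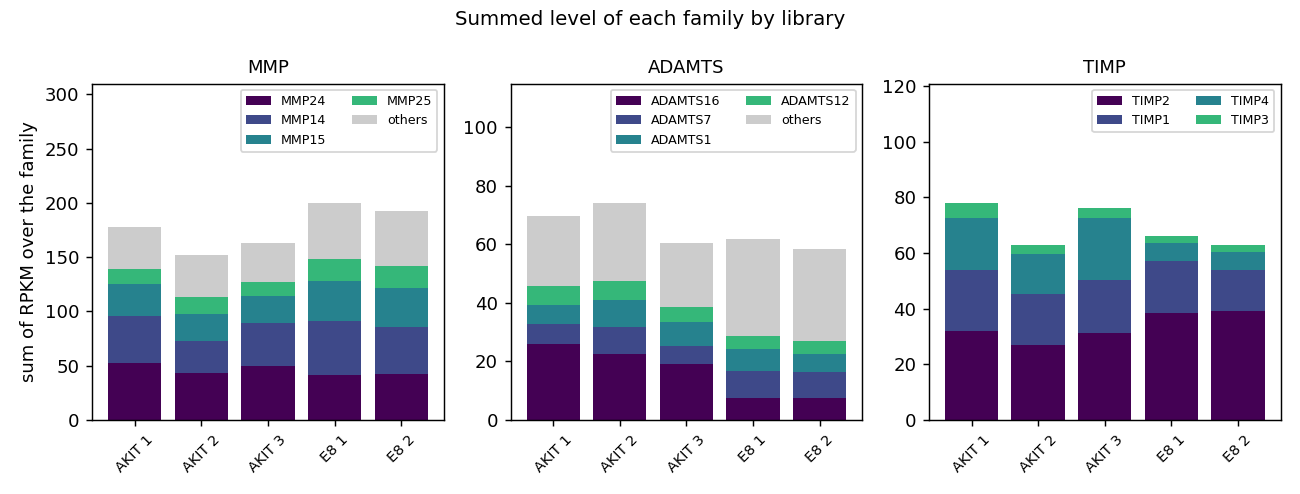
Summed RPKM (y axis, from 0) of each family in each library, divided into its 4 genes with the highest means and, for MMP and ADAMTS, the others. ADAMTS16 and TIMP4 take a larger part of their bars in the 3 AKIT libraries than in the 2 E8 libraries.

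Of the 10 members that rose or fell, ADAMTS4, ADAMTS16 and TIMP4 passed with each of the 5 libraries left out in turn. Over the alternatives their limma adjusted p ranged from 0.000216 to 0.0360, 0.000190 to 0.0305 and 0.000252 to 0.0474. With E8 replicate 1 or 2 left out, 2 members rose and 1 fell. Those fits had 1 E8 library, which was taken to vary like the AKIT libraries, and called 2.69% and 2.66% of all tested genes, against 20.0% with both. Without AKIT replicate 2, 5 members rose and 10 fell, and 32.2% of all tested genes were called.

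Around the family, 56 genes for activators, other inhibitors, relatives and substrates were examined in the same fit. Of these, 55 had a row and 39 were tested. VCAN rose, 8 fell and 30 did not pass, against the same 8.22% and 11.7% of all genes. The median difference of the 39 was -0.16. VCAN, the gene of versican, which ADAMTS1, ADAMTS4, ADAMTS5 and others are known to cut, was at 269, 329 and 263 RPKM in AKIT and 122 in each E8 library (1.22 ± 0.13, limma adjusted p = 0.002). ADAMTS4 and VCAN thus changed in opposite directions in the same libraries. The genes of the other large proteoglycans did not pass, with differences of 0.46 ± 0.16 for ACAN, 0.32 ± 0.18 for BCAN and 0.39 ± 0.13 for NCAN. ACAN and NCAN passed with quantile normalization and with voom (limma adjusted p = 0.0369 to 0.347 and 0.0327 to 0.402 over the alternatives). NID1, a basement membrane protein, fell from 26.8 ± 2.08 to 9.29 ± 1.67 RPKM (-1.44 ± 0.15, limma adjusted p = 0.00212), and SPARC, a collagen-binding protein, from 129.9 ± 2.59 to 72.8 ± 14.1 (-0.85 ± 0.17, limma adjusted p = 0.0161). The call of SPARC ended without either E8 library (0.00212 to 0.133 over the alternatives).

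Of 11 tested activators and inducers, 3 fell. PLAU, the urokinase that starts the plasmin route to MMP activation, was at 5.44, 5.86 and 5.88 RPKM in AKIT and 13.8 and 10.3 in E8 (-0.94 ± 0.14, limma adjusted p = 0.00616). That call ended without E8 replicate 1 (limma adjusted p = 0.0755). KLK6, a secreted serine protease, fell from 1.73 ± 0.248 to 0.394 ± 0.119 RPKM (-0.97 ± 0.15, limma adjusted p = 0.0068). It reached the tested level through E8, its mean in AKIT being under 0.5 RPKM, and its call ended without either E8 library. PLAUR, the urokinase receptor, was the third, named after its values were seen (-0.51 ± 0.13, limma adjusted p = 0.0354). Its call ended without AKIT replicate 1 or 3 and without either E8 library (0.0526 to 0.258). PLG, the gene of plasminogen, was at 0 in all libraries. FURIN, which cleaves the propeptides of membrane-type MMPs and ADAMTS proteases, was at 23.7 to 31.2 RPKM in AKIT and 31.0 and 32.3 in E8 (-0.16 ± 0.13, limma adjusted p = 0.418). BSG, a membrane protein known to induce MMPs, was at 268 to 371 RPKM in AKIT and 287 and 257 in E8 (0.16 ± 0.16, limma adjusted p = 0.515).

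Among other inhibitors, PAPLN, an ADAMTS-related matrix protein, fell from 12.3 ± 0.219 to 4.28 ± 1.998 RPKM (-1.40 ± 0.27, limma adjusted p = 0.0149). AKIT replicate 2 was the highest of its group, at 6.58 against 3.04 and 3.21 RPKM, and the call ended without AKIT replicate 3, E8 replicate 1 or E8 replicate 2 (0.000434 to 0.113 over the alternatives). RECK, a membrane-anchored inhibitor of MMPs, was at 0.970 to 1.57 RPKM in AKIT and 1.37 and 1.23 in E8 (-0.05 ± 0.16, limma adjusted p = 0.856). Of the ADAMTS-like genes, which lack the protease domain, ADAMTSL4 and THSD4 fell, both named after their values were seen (-0.54 ± 0.15 and -0.57 ± 0.13, limma adjusted p = 0.0490 and 0.0232). The call of ADAMTSL4 ended without any 1 library but AKIT replicate 2 (0.102 to 0.269), and that of THSD4 without AKIT replicate 1 (0.0552), E8 replicate 1 (0.175) or E8 replicate 2 (0.177). ADAM10 and ADAM17, the main shedding proteases of the cell surface, were at 30.2 to 35.8 and 8.50 to 11.4 RPKM in AKIT and at 30.8 to 32.6 and 9.29 to 9.53 in E8, groups that overlapped.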

How the data were processed

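Column-purified total RNA of KhES-1 cells was sequenced from Illumina libraries, as the labels' protocols state. The authors deposited RPKM per gene symbol, in 1 column for each library used here, and columns were matched to samples by title. No column was matched to E8 replicate 3. The build was hg19 (GRCh37), per the submitters' processing notes. Which aligner, counter and annotation served, and whether strand was used, was not given in the sources used here. The planned comparison of all libraries was run as 3 AKIT against 2 E8 libraries.

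The trend option of limma 3.58.1 in R 4.3.3 was used on log2(RPKM + 1) of all genes averaging 0.5 RPKM or more, two-sided, with Benjamini-Hochberg adjustment at 0.05, no covariate and no block. Since RPKM values come in steps of 1 read, whole reads were recovered for 100.0% of 19892 genes above 0 (tolerance 0.02 reads) and used for depth, read numbers and voom. The chi-square per gene between libraries of a group was 3.3 or more, above the 1 that sampling alone gives, and no library was merged with another. The fit was tested on simulated data. Alternatives covered the pseudocount, filter, normalization, variance model, replicate block and each library left out.

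Every tested member is named, as is any other with 0.5 RPKM in 1 library. Of the pathway list the 5 largest changes per direction among genes past the threshold are named (1 rose), with RECK, FURIN, BSG and PLAU; 1 further gene of that rule is not reported here. Members and lists were chosen with earlier results of these data known. Genes named as neighbours or overlapping genes were chosen after their values were seen.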

Additional observations from a re-analysis of the deposited data

How the results depend on the processing

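Of the members, 5 rose and 10 fell with array weights, against 3 and 7, in a fit that called 33.9% of all genes, against 20.0%. With the replicate number as a block, which could use only AKIT and E8 replicates 1 and 2, 3 members rose and 2 fell, and 9.27% of all genes were called. That block ended the calls of MMP9 (adjusted p = 0.0599), MMP15 (0.0896), MMP16 (0.0613), MMP17 (0.0825) and MMP25 (0.113), and those of SYN3 (0.0647), SOX2 (0.0709), PODXL (0.0993), PLAUR (0.126), ADAMTSL4 (0.134) and THSD4 (0.0799). Among pathway genes, against 1 that rose and 8 that fell, 4 fell with a minimum mean of 2 RPKM, 3 rose and 5 fell with quantile normalization, 3 rose and 13 fell with array weights, 3 rose and 5 fell with the replicate block, and 4 rose with voom. With 1 library left out, 2 to 5 members rose and 1 to 10 fell, and 1 to 3 pathway genes rose and 1 to 12 fell. With the minimum mean of 2 RPKM, 25 pathway genes were tested, against 39 in the main fit. KLK6, PLAUR and THSD4 lay below that mean, and ADAMTSL4 did not pass (limma adjusted p = 0.0549). The fits with 1 library left out and the block had fewer libraries. The causes of the other shifts were not tested. Of the 55 genes followed, limma without a trend changed no call, and median-of-ratios scaling and a pseudocount of 0.5 ended that of ADAMTSL4 alone (adjusted p = 0.0544 and 0.0521).

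The labels do not say what a replicate number marks. Deviations from the group means had a correlation of -0.001 between the first libraries of the media and 0.025 between the second.

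Some differences near 0 that did not pass changed sign. With 1 library left out, ADAMTS15 ranged from -0.0239 to 0.227, ADAMTS20 from -0.13 to 0.203, MMP2 from -0.0288 to 0.118, RECK from -0.151 to 0.0411 and POU5F1 from -0.0226 to 0.194. ADAMTS20 was at -0.0381 with array weights, ADAMTS3 at 0.0353 and RECK at 0.0918 with quantile normalization, and RECK at 0.0411 with the replicate block. Depth limits the members below 0.5 RPKM, which rest on few reads, and 2 E8 libraries limit every test.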

Other observations

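Genes next to or across from members changed where the member did not, and both were named after their values were seen. TMEM123, the protein-coding gene before the silent MMP group on chromosome 11, rose from 39.8 ± 0.476 RPKM in E8 (n = 2) to 74.1 ± 11.3 in AKIT (n = 3) (log2 difference 0.87 ± 0.14, limma adjusted p = 0.00834). The call ended without either E8 library (0.00155 to 0.0900 over the alternatives). CHCHD10, a mitochondrial protein gene that overlaps MMP11 on the opposite strand in GENCODE release 29, was at 36.3, 34.2 and 35.8 RPKM in AKIT and 16.4 and 17.0 in E8 (1.04 ± 0.09, limma adjusted p = 0.00130, with 0.000146 to 0.0349 over the alternatives). The means of MMP11 were 6.97 ± 0.716 RPKM (AKIT) and 7.63 ± 0.0261 (E8).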
